A study of Mus musculus with 16 samples.

Results

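The 39 genes described here encode the proteins that copy DNA in S phase and the enzymes that supply its precursors: the origin recognition and MCM loading factors, the helicase activators, the replicative polymerases, the sliding clamp and its loader, the Okazaki fragment enzymes, ribonucleotide reductase and its partners, chromatin factors that follow the fork, and the E2F1 and cyclin E regulators. They were taken from a fixed list of symbols, and a gene counted as measured where a probe set of the array named it alone. That held for 37 of the 39 (Gins2 and Chaf1a were not named alone by any probe set), out of 12393 genes measured in this way. No expression threshold entered the rule, although the set was put together with earlier results of these arrays known. Where several probe sets named a gene, which was so for 21 of the 37, the one with the highest mean over all arrays was used.

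In G1, the origin recognition complex together with CDC6 and CDT1 loads the MCM2-7 helicase onto origins, and geminin blocks CDT1 so that no origin is loaded again in the same cycle. Kinases of the S phase then bring CDC45 and the GINS complex to MCM2-7, which opens the DNA, and polymerases alpha, delta and epsilon copy it with the PCNA clamp, the RFC clamp loader and the RPA single-strand binding protein. Many of these genes are transcribed through E2F sites when cells pass from G1 into S phase, so that as a class they are much used as a readout of cycling in tumours.

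The study measured messenger RNA on Affymetrix M430A_2 arrays, which carry short probes for mouse genes, 16 in all, to compare a melanoma model able to metastasise with one that is not. Of these, 4 held melanocytes labelled as free of disease, whose genotype, strain and age are not stated in the labels. The iMet group held 6 arrays of melanomas with the genotype Tyr-rtTA;Tet-Met;Ink4a/Arf-/-, in which the tyrosinase promoter drives the tetracycline transactivator and thereby a Met transgene. The iHRAS* group (iRas in the sample titles) held 6 arrays of melanomas with the genotype Tyr-rtTA;Tet-HRASV12G;Ink4a/Arf-/-. Both tumour groups therefore lacked Ink4a and Arf, cell cycle inhibitors that act on the RB and p53 pathways, so that a difference between a tumour group and the melanocytes can carry that deletion as well as the oncogene. The labels name isolated melanoma cells while the design text names melanoma RNA, and no label ties an array to its own animal, so p-values here reflect the spread between arrays, which may be partly technical. The number of arrays limits the precision. Signals are log2 values, quantile-normalized here, so that each difference is relative to the rest of the array, and 1 unit is a doubling of signal.

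The arrays carried signs of other cells and of handling that moved with the groups. Of 9 measured melanocyte lineage genes, Mitf, Tyr, Tyrp1, Dct, Kit and Ednrb were below the detection level used (log2 6.21) on all 4 melanocyte arrays. The other 3 were above it on all 4. Pax3, Tyr, Tyrp1, Dct and Pmel were below it on all 6 iMet arrays, and 0 of the 9 on all 6 iHRAS* arrays. The mean log2 signal of the 9 was 4.875 to 5.878 on melanocyte arrays. It was 5.336 to 5.895 on iMet and 5.92 to 7.669 on iHRAS* arrays, so that the models did not overlap. The mean log2 signal of 12 keratinocyte genes was 6.51 to 9.24 on melanocyte arrays, 4.54 to 9.09 on iMet arrays and 8.59 to 10.64 on iHRAS* arrays. Means of 11 macrophage genes were 4.40 to 4.62, 10.3 to 11.02 and 8.57 to 10.55, and of 10 endothelial genes 4.26 to 5.24, 7.37 to 9.23 and 6.87 to 7.99, in the same order. The deposited signal of bioB, a bacterial RNA added before hybridisation, was 8.74 to 9.12, 8.68 to 9.15 and 7.48 to 8.30, so that the iHRAS* arrays lay below all others. A second such RNA, bioC, did the same (9.84 to 10.17, 9.83 to 10.18 and 9.14 to 9.68), whereas bioD overlapped across the groups. The 3′ minus 5′ signal of beta-actin was -0.044 to 0.025 on melanocyte arrays and 0.060 to 1.115 on tumour arrays. The top value was that of iHRAS* array 4, and no other tumour array exceeded 0.2973. The same measure of Gapdh overlapped across the groups (-0.3361 to -0.2279, -0.4185 to -0.203 and -0.3442 to 0.3375, in the order above). The mean of 10 fibroblast genes was 8.31 to 11.41 on melanocyte arrays and 11.5 to 12.77 on tumour arrays. Keratinocyte and endothelial means were entered as covariates in a fit reported with the first counts; the part of the other measures in the results was not tested. As these are bulk samples, fewer cycling cells and less messenger RNA per cell cannot be told apart in any result that follows.

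The promoters are shown first because the genes have a known regulator in common. Promoters (250 bases before to 50 after the gene start) were found in RefSeq, build GRCm38.p6, for 33 of the 39 genes. The following stretches cover the 180 bases before the gene start, 5′ to 3′, with capitals marking E2F cores, here the letters TTCCCGC or the letters TTGGCGC or the letters TTCGCGC or the letters TTGCCGC on either strand (cores can overlap). Mcm6, Mcm5 and Pola1 were chosen for several cores, Rpa2 and Rrm1 for a single one, and Pcna and Tk1 because they hold none in this window.
Mcm6 (chr1:128359706-128359885, minus strand): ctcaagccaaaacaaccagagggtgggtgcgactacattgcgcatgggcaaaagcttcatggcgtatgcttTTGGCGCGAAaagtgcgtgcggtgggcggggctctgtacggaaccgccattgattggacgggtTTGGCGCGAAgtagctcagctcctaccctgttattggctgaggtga
Mcm5 (chr8:75109329-75109508, plus strand): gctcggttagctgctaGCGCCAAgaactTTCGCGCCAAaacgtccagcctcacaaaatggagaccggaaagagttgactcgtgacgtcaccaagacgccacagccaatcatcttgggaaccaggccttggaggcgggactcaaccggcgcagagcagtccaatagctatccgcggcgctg
Pola1 (chrX:93632156-93632335, minus strand): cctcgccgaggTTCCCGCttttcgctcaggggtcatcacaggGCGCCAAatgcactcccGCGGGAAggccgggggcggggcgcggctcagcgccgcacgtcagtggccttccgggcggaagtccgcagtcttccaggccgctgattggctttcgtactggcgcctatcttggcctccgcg
Rpa2 (chr4:132768180-132768359, plus strand): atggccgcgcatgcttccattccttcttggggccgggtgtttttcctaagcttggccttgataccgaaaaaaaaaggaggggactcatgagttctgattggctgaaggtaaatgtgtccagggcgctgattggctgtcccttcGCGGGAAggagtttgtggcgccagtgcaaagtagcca
Rrm1 (chr7:102441515-102441694, plus strand): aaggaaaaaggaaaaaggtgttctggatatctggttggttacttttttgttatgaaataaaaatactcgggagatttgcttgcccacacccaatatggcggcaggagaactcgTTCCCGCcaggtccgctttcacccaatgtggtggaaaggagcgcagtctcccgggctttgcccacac
Pcna (chr2:132253181-132253360, minus strand): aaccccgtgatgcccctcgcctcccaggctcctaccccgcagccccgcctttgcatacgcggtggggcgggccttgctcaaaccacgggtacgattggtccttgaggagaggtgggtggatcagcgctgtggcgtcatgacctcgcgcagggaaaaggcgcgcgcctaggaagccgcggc
Tk1 (chr11:117826015-117826194, minus strand): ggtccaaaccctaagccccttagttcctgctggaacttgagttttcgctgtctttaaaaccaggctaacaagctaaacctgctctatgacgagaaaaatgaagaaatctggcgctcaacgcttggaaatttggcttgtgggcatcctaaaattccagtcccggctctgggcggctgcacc

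Over the whole promoter, 21 of the 33 genes (63.6%) held at least 1 E2F core, against 17.2% of 9888 genes that have a probe set of their own and 10.9% of all 27025 genes in the promoter table. The CHR element (TTTGAA or TTCGAA, either strand), through which the DREAM complex acts on late cell cycle genes, was in 6 of the 33 (18.2%), against 17.3% of genes on the array and 14 of 18 mitotic genes (77.8%). Of those mitotic genes 3 (16.7%) held an E2F core. The CCAAT box, in either orientation, was in a promoter of 57.6% of the replication genes, 83.3% of the mitotic genes and 42.3% of genes on the array. Median GC content was 60.2% for the replication promoters and 59.3% for genes on the array. These are counts of letters, not of bound sites.

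Between the tumour models, the replication genes were higher in iMet melanomas almost throughout. A gene was tested where its signal passed the detection level on at least 6 of the 12 tumour arrays, which 33 of the 37 did. Of these, 25 were higher and 0 lower in iMet at a Benjamini-Hochberg adjusted p under 0.05 (limma), where 11.2% of all 8058 genes tested were called higher and 9.7% lower. At an unadjusted p under 0.05 the counts were 29 higher and 0 lower. The share of all genes at that level is not given, here or beside later unadjusted counts. Such counts therefore do not show whether replication genes moved more than other genes. The median difference of the 33 was log2 0.89, while that of all genes tested was 0.03. In 20 of the 33 the lowest iMet array lay above the highest iHRAS* array, which was so for 5.83% of all genes tested (4.89% lay apart the other way). Fitted differences were negative for Fen1 and E2f1 and positive for the other 31.

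With the keratinocyte and endothelial means of each array entered as covariates, 6 of the 25 kept an adjusted p under 0.05 in limma (Gmnn, Mcm4, Mcm6, Prim1, Rfc4 and Rfc5), and the share of all genes called higher fell to 1.44%. The median difference of the replication genes was then 0.78, with 24 higher and 0 lower at an unadjusted p under 0.05 (share of all genes not given). The keratinocyte mean was 4.54 to 9.09 on iMet arrays and 8.59 to 10.64 on iHRAS* arrays, so that covariate partly stands in for the comparison. The part of cell content in the calls kept or lost was therefore not tested. In the fit without covariates, leaving out any 1 tumour array gave 23 to 28 genes higher. Of the 25, 23 were called each time.

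**Figure D1:**
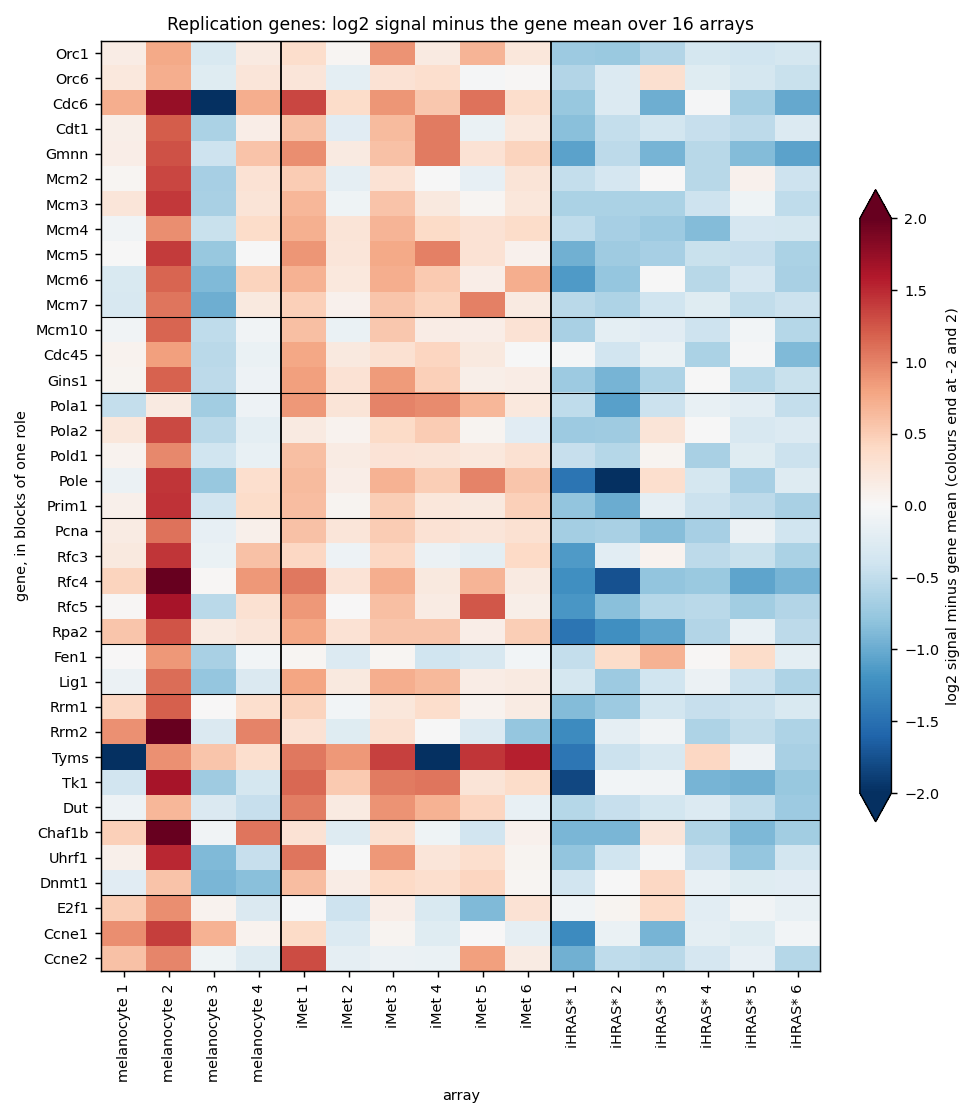
Each cell shows the log2 signal of 1 replication gene (rows, in blocks by role) on 1 of the 16 arrays (columns), minus that gene's mean over all arrays, with colours ending at -2 and 2. The 6 iHRAS* columns are mostly blue, the 6 iMet columns mostly red, and melanocyte array 2 is the reddest column while melanocyte array 3 is mostly blue.

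Origin licensing genes showed this in all but a few members. Of the 9 tested, 7 were higher in iMet than in iHRAS* melanomas and 0 lower, against 11.2% and 9.7% of all genes tested. Their median was log2 0.91. Gmnn encodes geminin, the inhibitor of CDT1. On the melanocyte arrays its log2 signals were 8.57, 9.71, 8.01 and 9.0. They ran from 8.61 to 9.47 (median 8.95) in iMet and from 7.36 to 7.90 (median 7.53) in iHRAS* melanomas. All iHRAS* arrays were thus below every other array, melanocytes included. The difference between the models was log2 1.42 ± 0.17 (SE), or 2.68-fold (adjusted p = 0.000249), and iHRAS* melanomas were below melanocytes by log2 -1.23 ± 0.27 (adjusted p = 0.00237).

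Mcm4, a subunit of the helicase, had log2 signals of 9.12, 10.13, 8.75 and 9.56 on the melanocyte arrays. Those of the tumours were 9.45 to 9.90 (median 9.57) in iMet and 8.33 to 8.86 (median 8.61) in iHRAS*. The tumour models did not overlap, while the lowest melanocyte array fell within the iHRAS* range. Mcm4 was 2.04-fold higher in iMet than in iHRAS* (log2 1.03 ± 0.13 SE, adjusted p = 0.000306). It was also lower in iHRAS* melanomas than in melanocytes (log2 -0.77 ± 0.21, adjusted p = 0.0106). A second Mcm4 probe set, which ends in x_at, gave 0.65 ± 0.19 between the models (adjusted p = 0.0295) with every probe set in the limma fit. There the models overlapped (8.43 to 9.56 in iMet and 8.07 to 8.77 in iHRAS*). For iHRAS* against melanocytes that set did not pass (-0.64 ± 0.28, adjusted p = 0.083).

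The remaining MCM2-7 subunits differed from each other in size more than in direction. The log2 difference between the models was 1.19 ± 0.17 (SE) for Mcm5, 1.08 ± 0.18 for Mcm6, 0.91 ± 0.15 for Mcm7 and 0.75 ± 0.15 for Mcm3, all with an adjusted p of 0.00495 or less, and ranges of the models overlapped only for Mcm3. Cdt1, the MCM loader that geminin inhibits, was higher by 0.84 ± 0.20 (adjusted p = 0.0122) with no overlap. Mcm2 (0.40 ± 0.16, adjusted p = 0.0892) and Orc6 (0.38 ± 0.15, adjusted p = 0.101) did not pass, and their ranges overlapped. Without iHRAS* array 3, Orc6 passed, at 0.50 (adjusted p = 0.0147). Mcm3 was the other licensing gene called below melanocytes in iHRAS*, by log2 -0.80 ± 0.29 (adjusted p = 0.037). That call was lost on leaving out any of 8 arrays (melanocyte 1, 2 or 4, or iHRAS* 1, 2, 3, 4 or 6), with adjusted p up to 0.148. The probe set of Mcm3 used ends in s_at. Of its other sets, the 3 tested in both comparisons gave 0.92 to 1.54 between the models (adjusted p up to 0.00768) and -1.77 to -1.01 for iHRAS* against melanocytes (adjusted p up to 0.0201).

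A second probe set of Mcm2 gave another answer. The one used ends in s_at, a suffix that marks probes shared by several transcripts. The other, which does not, gave log2 0.90 ± 0.16 (adjusted p = 0.00303 with every probe set in the limma fit), with 9.32 to 10.07 in iMet and 8.39 to 9.12 in iHRAS* and no overlap.

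Orc1 and Cdc6, which start licensing, were too dim to test between the tumours. Orc1 log2 signals were 5.80, 6.42, 5.35 and 5.83 on melanocyte arrays, 5.69 to 6.55 (median 5.94) in iMet and 4.91 to 5.30 (median 5.16) in iHRAS*. Cdc6 gave 6.32, 7.33, 1.58 and 6.32 on melanocyte arrays, 5.94 to 6.93 (median 6.30) in iMet and 4.57 to 5.57 (median 4.87) in iHRAS*. For both, every iHRAS* array was below every iMet array, at signals near or below the detection level where differences are poorly measured. The single melanocyte value of 1.58 for Cdc6 set most of that group's spread (SD 2.58, n = 4).

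Among the factors that turn the loaded helicase on, all 3 measured genes were higher in iMet (median log2 0.67). So were 11.2% of all genes tested. Gins1, a subunit of GINS, had log2 signals of 6.93, 8.06, 6.36 and 6.79 on melanocyte arrays, of 7.01 to 7.74 (median 7.27) in iMet and of 5.96 to 6.88 (median 6.29) in iHRAS*. The models did not overlap, and melanocyte arrays fell in both ranges. The difference was log2 1.0 ± 0.18 (SE), a 2.00-fold change (adjusted p = 0.00266).

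Cdc45, the other helicase cofactor, gave 7.38, 8.14, 6.77 and 7.18 on melanocyte arrays, 7.31 to 8.09 (median 7.57) in iMet and 6.43 to 7.29 (median 7.06) in iHRAS*. The models were separated by a narrow gap. The difference was log2 0.67 ± 0.18 (adjusted p = 0.0185). Mcm10, which helps the helicase start, was higher by 0.62 ± 0.15 (adjusted p = 0.012) with overlapping ranges. None of the 3 was called against melanocytes in either tumour model at the adjusted threshold (limma), and at an unadjusted p under 0.05 1 of them was lower in iHRAS*.

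**Figure D2:**
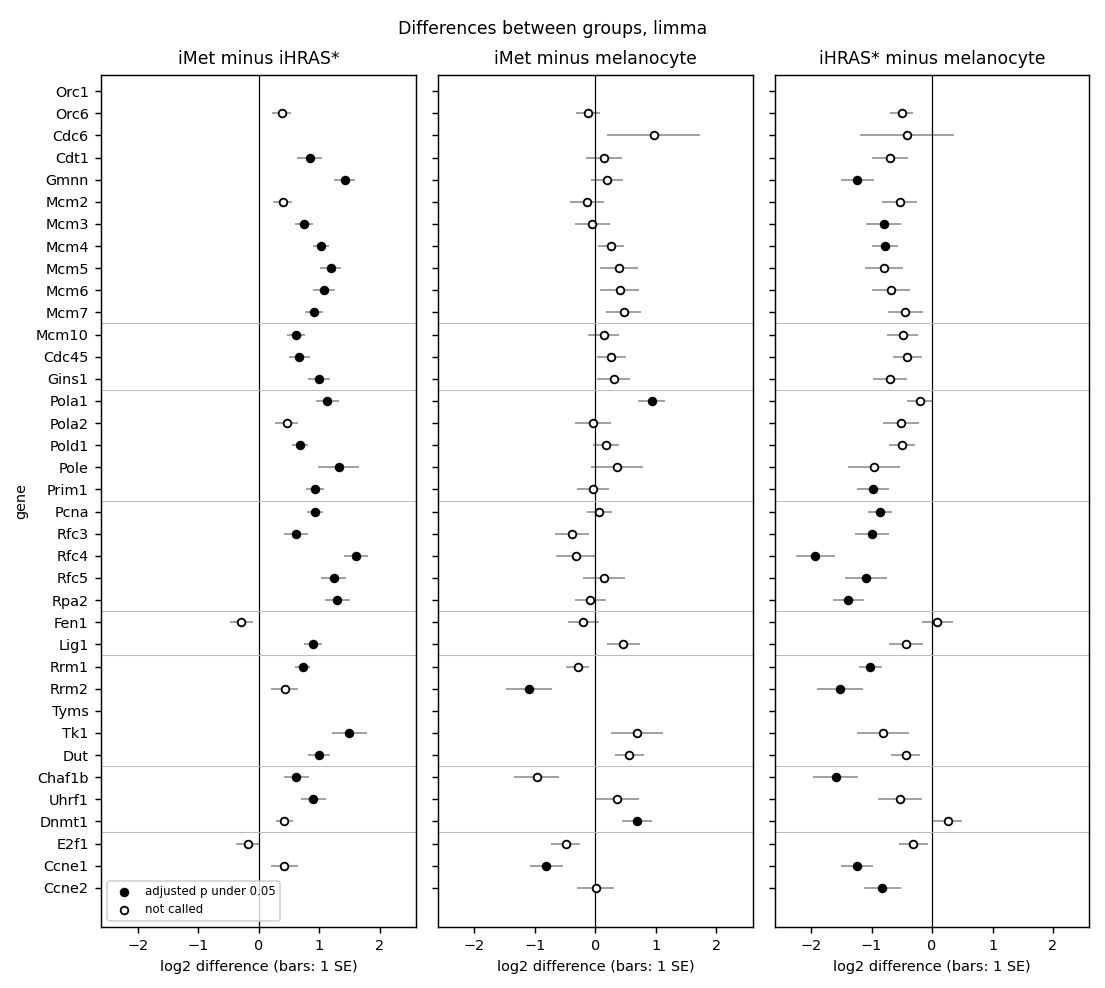
Points give the log2 difference between groups for each replication gene (rows, by role) in the 3 comparisons (panels), with bars of 1 SE from limma and filled points at an adjusted p under 0.05; genes not tested have no point. In the left panel 25 of 33 points are filled and all lie to the right of 0, in the middle panel 4 are filled, and in the right panel the 14 filled points lie to the left.

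Polymerase and primase genes followed, with 4 of 5 higher in iMet (median log2 0.94), against 11.2% of all genes tested. Pola1, the catalytic subunit of polymerase alpha that starts each new strand, had log2 signals of 6.66, 7.32, 6.45 and 7.03 on melanocyte arrays. In iMet it ran from 7.34 to 8.13 (median 7.91) and in iHRAS* from 6.06 to 6.99 (median 6.69). Every iMet array exceeded every array of the other groups, while iHRAS* and melanocytes overlapped. The iMet melanomas were 2.19-fold above iHRAS* (log2 1.13 ± 0.19 SE, adjusted p = 0.00183) and 1.91-fold above melanocytes (log2 0.93 ± 0.22, adjusted p = 0.00475). Pola1 was the single replication gene whose iMet range lay clear of the melanocyte range, which in that direction was so for 12.6% of all genes tested (15% lay apart the other way), and its call stood on leaving out any 1 array (adjusted p up to 0.0199). Without melanocyte arrays 1 and 3 it missed the threshold, at log2 0.62 (adjusted p = 0.101).

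Prim1, the primase that lays the RNA primer, gave 8.74, 10.08, 8.25 and 9.01 on melanocyte arrays, 8.69 to 9.25 (median 8.99) in iMet and 7.65 to 8.46 (median 8.06) in iHRAS*. It was higher in iMet than in iHRAS* by log2 0.94 ± 0.15 (adjusted p = 0.00129) with no overlap. It was lower in iHRAS* than in melanocytes by -0.97 ± 0.27 (adjusted p = 0.00997), where melanocyte array 3 lay inside the iHRAS* range.

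Pole, the catalytic subunit of the leading-strand polymerase epsilon, varied most among the iHRAS* melanomas. It had log2 signals of 7.66, 9.20, 7.02 and 8.11 on melanocyte arrays, 7.91 to 8.77 (median 8.37) in iMet and 5.75 to 8.10 (median 7.27) in iHRAS*. The models overlapped at iHRAS* array 3. The difference of log2 1.32 ± 0.34 (adjusted p = 0.0161) was among the largest of the 33, with an iHRAS* SD of 0.86 (n = 6). Pold1, the catalytic subunit of polymerase delta, was higher in iMet by 0.68 ± 0.13 (adjusted p = 0.00353). Pola2 (0.46 ± 0.18, adjusted p = 0.0963) did not pass, though without iHRAS* array 3 it did, at 0.57 (adjusted p = 0.0334).

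The clamp, clamp loader and single-strand binding genes were the role in which all 5 members were both higher in iMet than in iHRAS* (median log2 1.24) and lower in iHRAS* than in melanocytes (median -1.09). Of all genes tested, 11.2% were higher in the first comparison and 21.3% lower in the second. Rfc4, a subunit of the loader, was dim in iHRAS* melanomas. It gave log2 signals of 7.47, 9.05, 7.04 and 7.88 on melanocyte arrays, 7.20 to 8.06 (median 7.49) in iMet and 5.26 to 6.27 (median 6.02) in iHRAS*. The iHRAS* arrays lay below all 10 others, and 4 of the 6 were below the detection level. Since only 2 iHRAS* arrays passed that level, the size of the difference is poorly measured. With the dim arrays set to the detection level, Rfc4 was at least 2.48-fold higher in iMet than in iHRAS* (adjusted p = 0.000306 in the limma fit of the measured values). In the same way it was at least 3.12-fold lower in iHRAS* than in melanocytes (adjusted p = 0.000343).

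Rpa2, a subunit of the single-strand binding protein, gave 8.13, 8.84, 7.76 and 7.82 on melanocyte arrays, 7.72 to 8.36 (median 8.11) in iMet and 6.12 to 7.45 (median 6.77) in iHRAS*. Here too the iHRAS* arrays were below all others. The differences were log2 1.30 ± 0.21 for iMet against iHRAS* (adjusted p = 0.0015) and -1.39 ± 0.26 for iHRAS* against melanocytes (adjusted p = 0.000775). A second probe set gave smaller differences, 0.59 ± 0.16 (adjusted p = 0.0243) and -0.79 ± 0.22 (adjusted p = 0.0117) with every probe set in the fit, and there the models overlapped (7.51 to 7.94 in iMet and 6.69 to 7.68 in iHRAS*). Its promoter, printed above, held 1 E2F core in the stretch shown.

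Rfc5 was higher in iMet by log2 1.24 ± 0.21 (adjusted p = 0.00194) and lower in iHRAS* than in melanocytes by -1.09 ± 0.34 (adjusted p = 0.0195). The second of these calls was lost without melanocyte array 2, at -0.66 (adjusted p = 0.0738). Pcna, the clamp itself, had means of 12.07 ± 0.55 (SD, n = 4) in melanocytes, 12.14 ± 0.15 (n = 6) in iMet and 11.21 ± 0.26 (n = 6) in iHRAS*. It was higher in iMet than in iHRAS* by 0.92 ± 0.13 (SE, adjusted p = 0.000624) and lower in iHRAS* than in melanocytes by -0.86 ± 0.20 (adjusted p = 0.00422). Its promoter, like that of Tk1, had no E2F core in the window printed above.

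Rfc3 was near the threshold between the models. The difference was log2 0.61 ± 0.20 (adjusted p = 0.0461), and leaving out any of 9 of the 12 tumour arrays (all but iMet 5 and iHRAS* 2 and 3) took it past 0.05, up to 0.0998. Against melanocytes Rfc3 was lower in iHRAS* by -1.0 ± 0.28 (adjusted p = 0.011). A second probe set gave 0.65 ± 0.22 between the models (adjusted p = 0.0565) with every probe set in the limma fit. For iHRAS* against melanocytes that set gave -0.87 ± 0.31 (adjusted p = 0.0397).

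**Figure D3:**
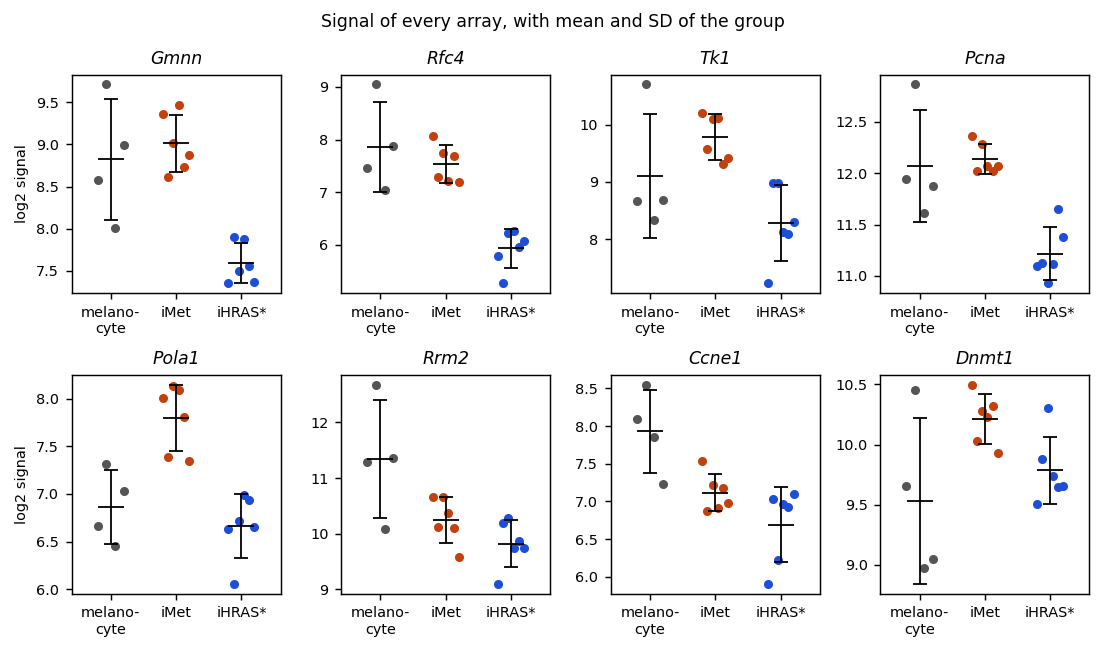
Log2 signal of 8 replication genes on every array (dots), by group, with horizontal lines at the group mean and bars of 1 SD (n = 4, 6 and 6); the vertical axes differ between panels and do not start at 0. For Gmnn and Rfc4 all iHRAS* dots lie below every other dot, for Pola1 all iMet dots lie above every other dot, and in each of the 8 panels the highest melanocyte dot is array 2.

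Of the Okazaki fragment enzymes, Lig1, the ligase that seals the fragments, gave 8.29, 9.51, 7.63 and 8.12 on melanocyte arrays. Its log2 signals were 8.55 to 9.19 (median 8.83) in iMet and 7.68 to 8.28 (median 7.98) in iHRAS*. The models did not overlap, and the difference was log2 0.89 ± 0.15 (adjusted p = 0.00191).

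Fen1, the nuclease that trims the fragments' 5′ flaps, depended on the probe set. With the one used, which ends in x_at (probes that may bind unrelated transcripts), log2 signals were 9.64, 10.51, 8.99 and 9.58 on melanocyte arrays, 9.25 to 9.69 (median 9.48) in iMet and 9.16 to 10.34 (median 9.83) in iHRAS*. The groups overlapped, and the difference between models was -0.29 ± 0.19 (adjusted p = 0.295). With the other probe set, the signals were 8.94, 10.01, 8.25 and 8.6 on melanocyte arrays, 8.27 to 8.99 in iMet and 7.5 to 8.27 in iHRAS*, so that the models only touched. There the fit of all probe sets gave log2 0.73 ± 0.16 between the models (adjusted p = 0.00726) and -1.01 ± 0.27 for iHRAS* against melanocytes (adjusted p = 0.0085). The sign of the Fen1 difference is therefore not settled by these arrays.

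Across all 66 probe sets of the 37 genes, 54 were tested between the models, and 40 were higher and 0 lower in iMet, against 10.9% and 8.34% of all probe sets. Of 58 tested against melanocytes, 29 were lower and 0 higher in iHRAS*, against 22.4% and 15.6%.

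**Figure D4:**
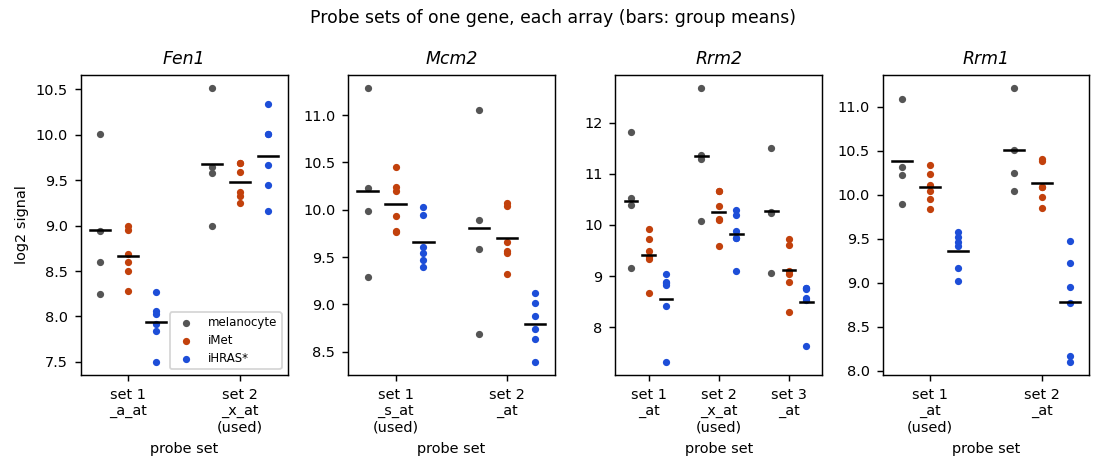
Log2 signal of each array (dots, coloured by group) for every probe set of Fen1, Mcm2, Rrm2 and Rrm1, with a line at each group mean; the probe set used is marked and axes do not start at 0. For Fen1 the used set has iHRAS* dots among and above the iMet dots, while in the other set the iMet dots start at 8.27, where the iHRAS* dots end.

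In nucleotide synthesis, 3 of 4 genes tested were higher in iMet (median log2 0.86) and 2 were lower in iHRAS* than in melanocytes. Of all genes tested, 11.2% and 21.3% were so called. Rrm1, the large subunit of ribonucleotide reductase, had log2 signals of 10.31, 11.09, 9.89 and 10.23 on melanocyte arrays, of 9.83 to 10.34 (median 10.08) in iMet and of 9.02 to 9.58 (median 9.44) in iHRAS*. The iHRAS* arrays were below all others. The difference between the models was log2 0.73 ± 0.13 (adjusted p = 0.00219), and iHRAS* was below melanocytes by -1.02 ± 0.19 (adjusted p = 0.000931). The other Rrm1 probe set gave larger differences of 1.35 ± 0.23 (adjusted p = 0.00214) and -1.72 ± 0.27 (adjusted p = 0.000271).

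Rrm2, the small subunit whose level limits the enzyme through the cycle, was called lower than melanocytes in both models. Its log2 signals were 11.28, 12.68, 10.08 and 11.36 on melanocyte arrays, 9.59 to 10.66 (median 10.25) in iMet and 9.10 to 10.29 (median 9.81) in iHRAS*. The tumour models overlapped, and 3 of the 4 melanocyte arrays were above every tumour array. Both models were below melanocytes, iMet by log2 -1.10 ± 0.38 (adjusted p = 0.0349) and iHRAS* by -1.53 ± 0.38 (adjusted p = 0.00554), in comparisons that share the melanocyte arrays. Between the models the difference of 0.42 ± 0.23 did not pass (adjusted p = 0.199). It passed with the values as deposited. The probe set used ends in x_at, and the other 2 gave 0.86 (adjusted p = 0.0553) and 0.61 (adjusted p = 0.116). For iMet against melanocytes these 2 gave -1.06 (adjusted p = 0.0697) and -1.16 (adjusted p = 0.0318) with every probe set in the limma fit. For iHRAS* against melanocytes they gave -1.92 (adjusted p = 0.00293) and -1.76 (adjusted p = 0.0026). Without sets ending in x_at or s_at the iMet call was lost. The iMet call was lost on leaving out melanocyte 1, 2 or 4, or iMet 2, 5 or 6, with adjusted p up to 0.14.

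Tk1, the thymidine kinase of the salvage route, gave 8.67, 10.70, 8.33 and 8.69 on melanocyte arrays, 9.31 to 10.19 (median 9.83) in iMet and 7.23 to 8.99 (median 8.21) in iHRAS*. Melanocyte array 2 stood above every tumour array and the other 3 melanocyte arrays lay within the iHRAS* range. The models did not overlap, with a difference of log2 1.5 ± 0.29, or 2.82-fold (adjusted p = 0.00396). Dut, which removes dUTP so that uracil is not built into DNA, gave 8.39, 9.16, 8.21 and 8.04 on melanocyte arrays, 8.36 to 9.53 (median 9.06) in iMet and 7.77 to 8.22 (median 8.02) in iHRAS*. It was higher in iMet by 1.0 ± 0.19 (adjusted p = 0.00333) without overlap.

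Tyms, the thymidylate synthase, could not be assessed. Its log2 signals were 1.05, 5.14, 4.78 and 4.57 on melanocyte arrays, 1.88 to 5.79 (median 5.45) in iMet and 2.79 to 4.64 (median 3.85) in iHRAS*, all below the detection level.

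Chromatin genes split. Chaf1b, a subunit of the chromatin assembly factor that places histones behind the fork, gave 8.09, 9.99, 7.54 and 8.68 on melanocyte arrays, 7.22 to 7.91 (median 7.61) in iMet and 6.70 to 7.85 (median 6.81) in iHRAS*. The models overlapped through iHRAS* array 3. Chaf1b was 3.02-fold lower in iHRAS* than in melanocytes (log2 -1.59 ± 0.37, adjusted p = 0.00344). Its difference between the models, 0.62 ± 0.21 (adjusted p = 0.0497), passed barely and was lost without any of 10 of the 12 tumour arrays (all but iMet 5 and iHRAS* 3), with adjusted p up to 0.106.

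Dnmt1, the methyltransferase that copies DNA methylation to the new strand, was 1 of 3 exceptions to the usual order of the groups, in which iHRAS* was lowest. Its log2 signals were 9.65, 10.46, 8.97 and 9.04 on melanocyte arrays, 9.93 to 10.50 (median 10.25) in iMet and 9.51 to 10.30 (median 9.70) in iHRAS*. Melanocytes had the lowest mean, but array 2 lay among the iMet values. The iMet melanomas were above melanocytes by log2 0.68 ± 0.25 (adjusted p = 0.0432). This call was lost on leaving out any of 11 of the 16 arrays (melanocyte 1, 3 or 4, iMet 1 to 5, or iHRAS* 4 to 6), with adjusted p up to 0.149. Between the models the difference was 0.42 ± 0.15 (adjusted p = 0.0556), which passed without iMet array 6 or iHRAS* array 3 (adjusted p down to 0.0103). A second Dnmt1 probe set, which ends in x_at, passed in neither comparison with every probe set in the limma fit. It gave 0.54 ± 0.25 for iMet against melanocytes (adjusted p = 0.106) and 0.41 ± 0.17 between the models (adjusted p = 0.119). Uhrf1, which guides DNMT1 to newly made DNA, was higher in iMet than in iHRAS* by 0.90 ± 0.21 (adjusted p = 0.00902), with no overlap.

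The regulators E2f1 and Ccne1 were not called between the models. Of these 2 tested, 0 passed in either direction in limma, and 0 did so at an unadjusted p under 0.05. E2f1 means were 8.62 ± 0.53 (SD, n = 4) in melanocytes, 8.13 ± 0.43 (n = 6) in iMet and 8.31 ± 0.22 (n = 6) in iHRAS*, and its difference between the models of log2 -0.19 ± 0.19 (SE) had an adjusted p of 0.519. Its sign turned with the values as deposited (0.06, adjusted p = 0.807). Ccne1 log2 signals were 8.09, 8.55, 7.85 and 7.22 on melanocyte arrays, 6.88 to 7.54 (median 7.07) in iMet and 5.91 to 7.10 (median 6.94) in iHRAS*. The tumour models overlapped (difference 0.42 ± 0.22, adjusted p = 0.18), and 3 of 4 melanocyte arrays were above all tumour arrays. Ccne1 was lower than in melanocytes in both models, by -0.81 ± 0.27 in iMet (adjusted p = 0.0293) and by -1.24 ± 0.27 in iHRAS* (adjusted p = 0.00241). The iMet call was lost without melanocyte 1 or 2 or iMet 2, 4 or 6 (adjusted p up to 0.114).

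Ccne2, the second cyclin E, was too dim to test between the tumours in the main setting, though with the values as deposited, or with all 16 arrays in the fit, it was tested and called higher in iMet. It gave 6.93, 7.31, 6.25 and 6.07 on melanocyte arrays, 6.15 to 7.64 (median 6.36) in iMet and 5.37 to 6.18 (median 5.81) in iHRAS*, with iMet arrays 1 and 5 standing above the other iMet arrays. No iHRAS* array reached the detection level (0 of 6), and the gene could be tested against melanocytes only through the other groups. The same holds for the test between the models with all 16 arrays, so that call does not support a difference. For iHRAS* against melanocytes the limma fit of the measured values gave an adjusted p of 0.0462, with iHRAS* at least 1.35-fold lower against the detection level. As Ccne2 passed the filter only through the groups where it is higher, this call does not support a difference either. It was also lost on leaving out any of 8 arrays (melanocyte 1 or 2, iMet 6, or iHRAS* 1, 2, 3, 4 or 6), with adjusted p up to 0.169.

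Set against melanocytes, the iMet melanomas showed few differences in these genes. Of 35 tested, 2 were higher (Pola1 and Dnmt1) and 2 lower (Rrm2 and Ccne1), where 16.4% of all 8651 genes tested were higher and 18.7% lower. The median difference was log2 0.14, against -0.08 for all genes. In iHRAS* melanomas 14 of 35 were lower and 0 higher, where 21.3% and 18.1% of all genes were so called. The 14 include Ccne2, which passed the filter only through the groups where it is higher. At an unadjusted p under 0.05 the counts in iHRAS* were 21 lower and 0 higher, with no share of all genes given at that level. The iHRAS* median was -0.70, against -0.09 for all genes, and 6 of the 35 had ranges apart from melanocytes, where 14.1% of all genes were apart in that direction. These comparisons share their melanocyte arrays, so their resemblance or difference is not a separate result.

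The order of the group means was nearly uniform. iHRAS* had the lowest mean in 34 of the 37 genes, the exceptions being Dnmt1 (lowest in melanocytes) and E2f1 and Fen1 (lowest in iMet). Among the 35 tested against melanocytes it was lowest in 32, where 35.5% of all genes had their lowest mean there. The highest mean was in iMet for 23 of the 37, in melanocytes for 13 and in iHRAS* for 1 (among the 35 tested 21, 13 and 1; of all genes tested 28% had their highest mean in iMet, 44.4% in melanocytes and 27.7% in iHRAS*), so the top of the order was not uniform, and 31 of the 35 tested were not called between iMet and melanocytes.

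Melanocyte array 2 stood apart. It was the highest of its group for 35 of 35 genes, and array 3 was the lowest for 31. Taking each gene as its deviation from its own mean over the 16 arrays, the median over 35 genes was log2 0.10, 1.21, -0.53 and 0.13 on melanocyte arrays 1 to 4. It ran from 0.09 to 0.63 on iMet arrays and from -0.76 to -0.36 on iHRAS* arrays. The tumour models therefore did not overlap in this summary, whereas the melanocyte arrays reached from the iHRAS* range to above every tumour. The median SD of the 35 genes was 0.73 in melanocytes, against 0.29 for all genes there, but 0.29 against 0.26 in iMet and 0.28 against 0.33 in iHRAS*. Over the 595 pairs of genes, the median correlation across the arrays of a group, as a description, was 0.95 in the 4 melanocyte arrays, 0.60 in the 6 iMet arrays and 0.33 in the 6 iHRAS* arrays.

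The counts against melanocytes moved with these arrays. Without melanocyte array 2, 10 genes were higher and 0 lower in iMet, while in iHRAS* 11 were lower and 1 (Dnmt1) was higher. Without melanocyte array 3, 26 were lower in iHRAS*. The share of all genes called in the fits that leave out an array is not given here. Those counts thus do not show whether replication genes moved more than other genes. Leaving out any 1 array gave 1 to 10 higher and 0 to 3 lower in iMet. The higher count was 1 without melanocyte 1, 3 or 4, iMet 1, 2, 3, 4 or 5, or iHRAS* 4, 5 or 6. The lower count was 1 without melanocyte 1 or iMet 4 or 5, and 0 without melanocyte 2 or iMet 2 or 6. Of the 14 iHRAS* calls, 11 stood in every one of these fits. With both of those marker means in the model, 0 genes were called in limma against melanocytes in either model, with 0 in iMet and 1 lower in iHRAS* at an unadjusted p under 0.05, and 0.243% of all genes lower in iHRAS*. The endothelial mean was 4.26 to 5.24 on melanocyte arrays and 6.87 to 9.23 on tumour arrays, without overlap. That covariate largely stands in for the comparison itself. The loss of calls therefore cannot show whether cell content bears on them.

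**Figure D5:**
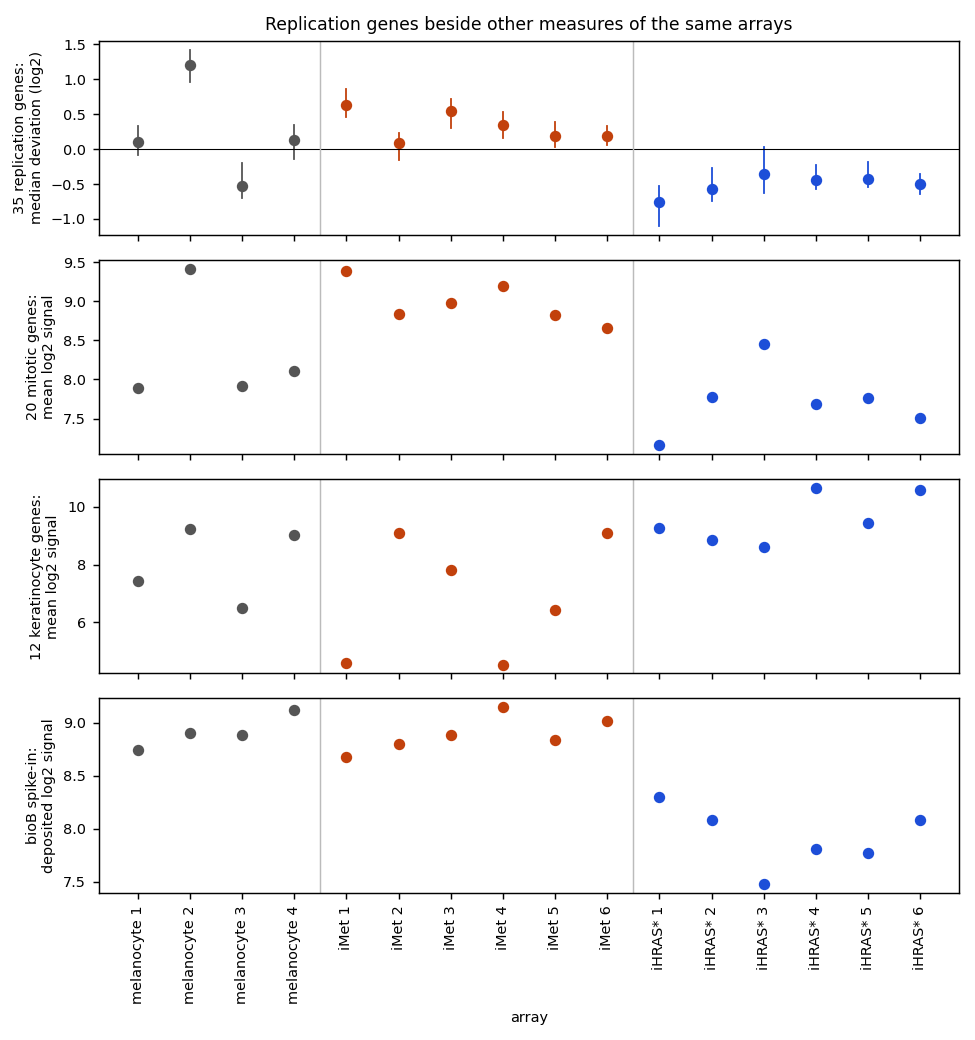
Each panel plots 1 measure for the 16 arrays: the median deviation of 35 replication genes from their own means (dots, with bars from the lower to the upper quartile of genes), the mean log2 signal of 20 mitotic genes, the mean log2 signal of 12 keratinocyte genes, and the deposited log2 signal of the bioB spike-in. Melanocyte array 2 is the highest melanocyte array in the first and second panels, the iHRAS* arrays are the lowest in the bioB panel, and iMet arrays 1 and 4 are the lowest in the keratinocyte panel.

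Genes of the same pathways outside the 39 were also mostly higher in iMet. Of 82 listed, 67 had a probe set. Of 63 tested between the models, 32 were higher and 1 lower in iMet, with a median of log2 0.48, where 11.2% and 9.7% of all genes were so called and their median was 0.03. Another gene was called lower without iMet array 6, iHRAS* array 3 or iHRAS* array 6, for 2 in all.

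Among further fork and origin genes, 17 of 28 were higher in iMet and 1 lower, against 11.2% and 9.7% of all genes tested. Cdc7, the kinase that fires licensed origins, ran from 7.57 to 8.77 (median 7.72) in iMet, from 6.22 to 6.80 (median 6.57) in iHRAS* and over 6.35, 7.14, 6.18 and 6.30 on melanocyte arrays. It was clear of both other groups, 2.64-fold above iHRAS* (log2 1.4 ± 0.20, adjusted p = 0.000714) and 2.70-fold above melanocytes (log2 1.43 ± 0.24, adjusted p = 0.00039). Hells, a chromatin remodeller (1.17 ± 0.17, adjusted p = 0.000786), and Pole2, the second subunit of polymerase epsilon (1.01 ± 0.16, adjusted p = 0.0011), were also higher in iMet than in iHRAS*. Pold4, the small accessory subunit of polymerase delta, was the one in the opposite direction. It ran from 8.23 to 8.78 in iMet, from 9.16 to 10.25 in iHRAS* and over 8.62, 8.13, 8.43 and 8.12 on melanocyte arrays. It was 2.28-fold lower in iMet than in iHRAS* (log2 -1.19 ± 0.20, adjusted p = 0.00158) and 2.62-fold higher in iHRAS* than in melanocytes (log2 1.39 ± 0.21, adjusted p = 0.000167).

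Of 22 further nucleotide synthesis genes, 10 were higher in iMet than in iHRAS* and 0 lower (median log2 0.47), where 11.2% of all genes were higher. Against melanocytes 11 of 23 were lower in iHRAS*, where 21.3% of all genes were lower. Mthfd2, a mitochondrial enzyme of one-carbon metabolism, separated all 3 groups. Its log2 signals were 10.12, 9.61, 9.97 and 9.37 on melanocyte arrays, 8.35 to 8.97 (median 8.63) in iMet and 6.81 to 8.24 (median 7.61) in iHRAS*, with no overlap between any groups. It was lower than in melanocytes by log2 -1.12 ± 0.25 in iMet (adjusted p = 0.0031) and by -2.20 ± 0.25 in iHRAS* (adjusted p = 1.28e-05). Ppat, which starts purine synthesis, was higher in iMet than in iHRAS* by 0.87 ± 0.12 (adjusted p = 0.000647) and lower in iHRAS* than in melanocytes by -1.41 ± 0.16 (adjusted p = 1.61e-05). Paics, a later purine enzyme, was higher in iMet by 0.81 ± 0.11 (adjusted p = 0.000421).

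Between the models, 11.2% of all genes tested were higher in iMet. Of 13 further regulators of S phase entry, 5 were higher in iMet and 0 lower (median log2 0.17). They included Ccna2, the cyclin of S phase and G2 (1.61 ± 0.19, adjusted p = 0.000249), Skp2, which marks the inhibitor p27 for destruction (1.39 ± 0.19, adjusted p = 0.000496), and Tfdp1, the partner of E2F proteins (0.68 ± 0.13, adjusted p = 0.00346). Skp2 was also above melanocytes in iMet, by 1.06 ± 0.22 (adjusted p = 0.00206).

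For comparison, 20 of 20 mitotic genes were higher in iMet than in iHRAS* melanomas, with a median of log2 1.27. Of all genes tested in that comparison 11.2% were higher, and their median was 0.03. Against melanocytes 6 of the 20 were higher and 0 lower in iMet, and 4 were lower and 0 higher in iHRAS*, where 16.4% of all genes were higher in iMet and 21.3% lower in iHRAS*. The iHRAS* share is thus near that of all genes. Their mean log2 signal was 7.89, 9.42, 7.92 and 8.11 on melanocyte arrays, 8.65 to 9.38 in iMet and 7.16 to 8.45 in iHRAS*. As with the replication genes, the models did not overlap and melanocyte array 2 was far above its group. Whether the mitotic and replication genes differed in the size of their shift was not tested.

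Scaling changed the split of calls over all genes, while between the models the replication median kept a similar distance from that of all genes. Of 1687 genes called between the models 53.6% were higher in iMet, and with the values as deposited 80.1% of 2247 were, with the median of all genes at log2 0.23. The replication median stood 0.86 above that of all genes with quantile normalization, 0.81 above it as deposited and 0.84 above it with arrays centred on their medians. Against melanocytes the share of calls that were higher in iMet was 46.6%, or 55.9% as deposited and 33.7% with centring, and in iHRAS* 46.0%, or 35.6% and 34.2%. Counts of replication genes moved too. Between the models 25 were called, or 31 as deposited and 24 with centring, beside 1687, 2247 and 1453 of all genes. For iHRAS* against melanocytes 14 were called, or 19 in either other setting, beside 3404, 3765 and 3905 of all genes.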

How the data were processed

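Messenger RNA was measured on 16 Affymetrix M430A_2 arrays (4 melanocyte, 6 iMet, 6 iHRAS*), grouped by the labels. The authors deposited log2 signals for 22690 probe sets; the summarisation and normalization behind them are not given in the sources used here. The deposited column medians ran from 6.565 to 7.285, a spread of 0.72, above the limit of 0.3 set for leaving values as they were, so the 22626 probe sets other than 64 controls were quantile-normalized. Genes came from the 20380 probe sets with 1 symbol in the platform annotation, 1 probe set per gene (highest mean over 16 arrays); 691 had several symbols and 1555 none.

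A gene was tested where it exceeded log2 6.21, the 40th percentile of all values, on at least 6 of 12 tumour arrays, or on at least 4 of 16 arrays against melanocytes. Groups were compared with limma 3.58.1 in R 4.3.3 (lmFit, eBayes, two-sided), with Benjamini-Hochberg adjustment over all 8058 or 8651 genes tested and a threshold of 0.05. The tumour comparison used the tumour arrays, and those against melanocytes used all 16. The fit was tested on simulated data. Where the mean of the dimmer group of a called member was below log2 6.21, the fold is given as a lower bound, with that group's arrays set to at least 6.21; this was added after seeing the data. Python 3.11.15, pandas 2.3.3 and matplotlib 3.10.9 were used for promoters and figures. Promoter sequences are from RefSeq, build GRCm38.p6. The largest correlation between arrays was 0.9511, so none was a copy of another.

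Members and lists were chosen with earlier results of these data known. Genes described array by array were, in each role, the 2 with the smallest F-test p over the 3 groups, in each comparison the 4 called members with the largest difference and those called in the rarer direction, every member not tested, and, of other pathway genes, up to 3 called per list and direction with the smallest p. Alternatives were the values as deposited, median centring, other filters, the mean of a gene's probe sets, other arrays in the fit, each array left out, pairs of arrays left out, a replicate block, a trended and robust eBayes and marker means as covariates.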

Additional observations from a re-analysis of the deposited data

Results flagged for a closer look

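Some arrays stood far from the rest of their group, by a gap test that chance passes in about 1 of 20 groups. Of 111 groups of member values, 5 were picked out. Pold1 was 8.544 on iMet array 1, against 8.109 to 8.251 on the others. Tyms, below the detection level throughout, was 1.876 on iMet array 4 (others 5.103 to 5.791) and 1.051 on melanocyte array 1 (others 4.57 to 5.14). Tk1 was 10.7 on melanocyte array 2, against 8.332 to 8.69. Chaf1b was 7.851 on iHRAS* array 3, against 6.699 to 7.006.

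Among measures of whole arrays, the lower quartile of the replication genes' deviations was -1.103 on iHRAS* array 1, against -0.7454 to -0.5436 on the others. The mean of the mitotic genes was 9.417 on melanocyte array 2, against 7.887 to 8.107. The deposited 3′ minus 5′ signal of beta-actin, a measure of RNA integrity, was 1.115 on iHRAS* array 4, against 0.06006 to 0.2973. The second Fen1 probe set, which the counts of genes do not use, gave a difference of 0.7293 (log2) between iMet and iHRAS*, against -0.29 for the one used.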

How the results depend on the processing

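For single genes, 1635 fits under another setting left the call as it was, 185 lost it, 15 gained it and 4 reversed the direction. The reversals were E2f1 between the models, at log2 0.064 as deposited and 0.045 with marker means as covariates, and Fen1, at 0.22 with the mean of its probe sets and 0.73 without probe sets ending in x_at or s_at. None of the reversed E2f1 values passed the threshold.

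Between the models, the other pathway genes called lower were 2 with all 16 arrays in the fit, without iHRAS* arrays 5 and 6, or without iHRAS* arrays 3 and 4. With covariates, 6 members and 6 other pathway genes were higher. Leaving out each array gave 23 to 28 members higher and 0 lower, and 26 to 34 other pathway genes higher and 1 to 2 lower.

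Between iMet and melanocytes, the members called higher were 1 as deposited, with centring, with no filter, with the 20th percentile, with the mean of probe sets, with only both groups in the fit, with the replicate block and without iHRAS* arrays 5 and 6. They were 0 without melanocyte arrays 1 and 3 or with covariates, and 9 without melanocyte arrays 2 and 4. The members called lower were 1 as deposited, with no filter, with only both groups in the fit, without iHRAS* arrays 5 and 6 and without x_at and s_at sets, and 0 with the block, without melanocyte arrays 2 and 4 or with covariates. Other pathway genes were 3 lower as deposited, 4 higher and 11 lower with centring, 16 higher and 3 lower without melanocyte arrays 2 and 4, and 0 either way with covariates. Leaving out each array gave 1 to 10 members higher and 0 to 3 lower, and 5 to 14 other pathway genes higher and 3 to 8 lower.

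Between iHRAS* and melanocytes, the members called lower were 27 without melanocyte arrays 1 and 3, 5 without melanocyte arrays 2 and 4 and 0 with covariates. Other pathway genes were 12 lower without melanocyte arrays 2 and 4 and 0 either way with covariates. Leaving out each array gave 0 to 1 members higher and 11 to 26 lower, and 3 to 6 other pathway genes higher and 17 to 26 lower. The cause of these shifts was not tested, and the shares of all genes called in the fits that leave out arrays are not given here. At an unadjusted p under 0.05 the limma fit with covariates gave, for other pathway genes, 4 higher and 2 lower in iMet against melanocytes. In iHRAS* it gave 2 higher and 6 lower. The share of all genes at that level is not given. Since the endothelial covariate did not overlap between melanocyte and tumour arrays, no conclusion is drawn from that fit against melanocytes.

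Deviations of arrays with the same replicate number in the titles correlated between -0.225 and 0.107 for the tumour models. Arrays with different numbers were not set beside them, so whether the numbers pair the arrays was not tested. With the replicate block, 23 members were higher in iMet than in iHRAS* and 12 lower in iHRAS* than in melanocytes. The shares of all genes in that fit are not given here. The settings without x_at and s_at sets, without iHRAS* arrays 3 and 4 and with every probe set were chosen after seeing the data. Genes near the detection level are measured poorly, and 4 melanocyte arrays that differ widely limit both comparisons with them.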
